A study of Homo sapiens with 9 samples.

Results

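The alcohol and aldehyde dehydrogenases described here are 10 human genes, ADH1A, ADH1B, ADH1C, ADH4, ADH6, ALDH1A1, ALDH1B1, ALDH2, ALDH3A2 and ALDH8A1. They were chosen by symbol, with earlier results of these data known, from 19775 genes that had a probe set of their own on the array. They are represented by 20 probe sets, and 0 of the probe sets annotated to several genes carried any of the 10 symbols. Expression was measured in HepG2, a human liver tumour cell line, with 9 oligonucleotide arrays. The groups were knockdown1 (3 arrays) and knockdown2 (3 arrays), both siRNA double knockdowns of HNF4alpha and HNF4gamma, and the knockdown control (3 arrays). The labels give all groups the same cell line and do not say how knockdown1 differs from knockdown2, what the control received, or at what time RNA was taken. Separate cultures behind the arrays of a group are not stated either, and the p-values therefore reflect only the scatter among the arrays used, possibly a technical one. HepG2 is a tumour line and a limited model of the adult hepatocyte, in which the classical alcohol dehydrogenases are abundant.

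Alcohol dehydrogenases are cytosolic zinc enzymes that oxidise alcohols to aldehydes with NAD+, and aldehyde dehydrogenases oxidise the aldehydes on to carboxylic acids. In liver they clear ethanol by way of acetaldehyde, make retinoic acid from retinol, and remove aldehydes that arise from lipids and amino acids. HNF4alpha and HNF4gamma are nuclear receptors that bind DNA at direct repeats of short sites, and HNF4alpha controls many metabolic genes of the hepatocyte. The question put by the design is which genes depend on the 2 receptors, and it is asked here of the dehydrogenases.

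The deposited values are linear intensities per probe set, on which each array was brought to a common median of 14.1. Fold changes are on the log2(signal + 1.41) scale, which understates changes of dim probe sets. A probe set was kept where it exceeded its array's median on at least 3 of the 9 arrays, and each gene was represented by whichever of its probe sets had the highest average of log2 values across the 9 arrays. Signals of different probe sets depend on the probes, so levels are compared only within a probe set. All 10 hepatocyte markers passed the filter, and the dimmest of them, TTR, read 102 to 281 over the arrays. Their summed signal was 34905 to 42240 in knockdown1, 39103 to 42250 in knockdown2 and 40977 to 49545 in control. Over both knockdowns 3 of the 10 fell and 0 rose, namely TF (-0.76, adjusted p = 8.21e-06), APOA1 (-0.71, adjusted p = 1.25e-05) and TTR (-0.67, adjusted p = 0.0026), and in knockdown1 alone 4 fell. Among all genes tested, 17.9% were lower over both knockdowns and 19.0% in knockdown1. ALB did not pass over both knockdowns (-0.06, adjusted p = 0.730). Among 12 markers of blood, endothelial and stromal cells, 11 were annotated and 7 passed the filter. The summed signal of the 11 annotated markers was 887 to 1108 in knockdown1, 888 to 1066 in knockdown2 and 553 to 633 in control. By far the brightest of the 11 was ACTA2. Of the 7 tested, 2 rose over both knockdowns, ACTA2 by 1.02 (adjusted p = 4.90e-07, and 335 to 887 over the arrays) and PECAM1 by 0.59 (adjusted p = 0.0037). Among all genes tested, 14.7% were higher over both knockdowns. CD14 was lower (log2 fold change -2.66, adjusted p = 0.0096), but it exceeded the common median on control arrays only and so passed the filter through them. PTPRC, VWF and CDH5 stayed below the common median on every array, and no marker was at 0. The part of these marker shifts in the results below was not tested. HNF4G, a targeted gene, had 14.4, 23.5 and 17.4 in knockdown1, 41.9, 24.4 and 28.6 in knockdown2, and 45.2, 47.9 and 44.9 in control. The fall passed in knockdown1 (-1.28, SE 0.28, adjusted p = 5.38e-04) and not in knockdown2 (-0.56, SE 0.28, adjusted p = 0.142). HNF4A was not analysed here.

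Of the 10 dehydrogenase genes, 6 passed the filter on dim probe sets, and every one of these was lower over both knockdowns. They were ADH4, ADH6, ALDH1A1, ALDH1B1, ALDH2 and ALDH3A2, with log2 fold changes from -0.58 for ALDH1B1 to -1.97 for ADH6. ADH1A, ADH1B and ADH1C, the class I genes that carry most ethanol oxidation in adult liver, stayed below the array median on every array, and ALDH8A1 exceeded it on 2 control arrays only. Against the count of 6 of 6 lower genes, 17.9% of all 13056 tested genes were lower over both knockdowns (limma with Benjamini-Hochberg adjustment, adjusted p under 0.05). The median log2 fold change was -0.75 over the 6 genes and -0.01 over all genes tested. In knockdown1 alone, 5 of the 6 were lower, where 19.0% of all genes were, and in knockdown2 alone 6 of 6 were lower, where 13.9% were. Both comparisons use the same 3 control arrays. Since the 10 genes were chosen with earlier results of these data known, these counts and medians only describe them. In bulk RNA, fewer cells of a type and less RNA per cell cannot be told apart, so a lower signal may be either.

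**Figure D1:**
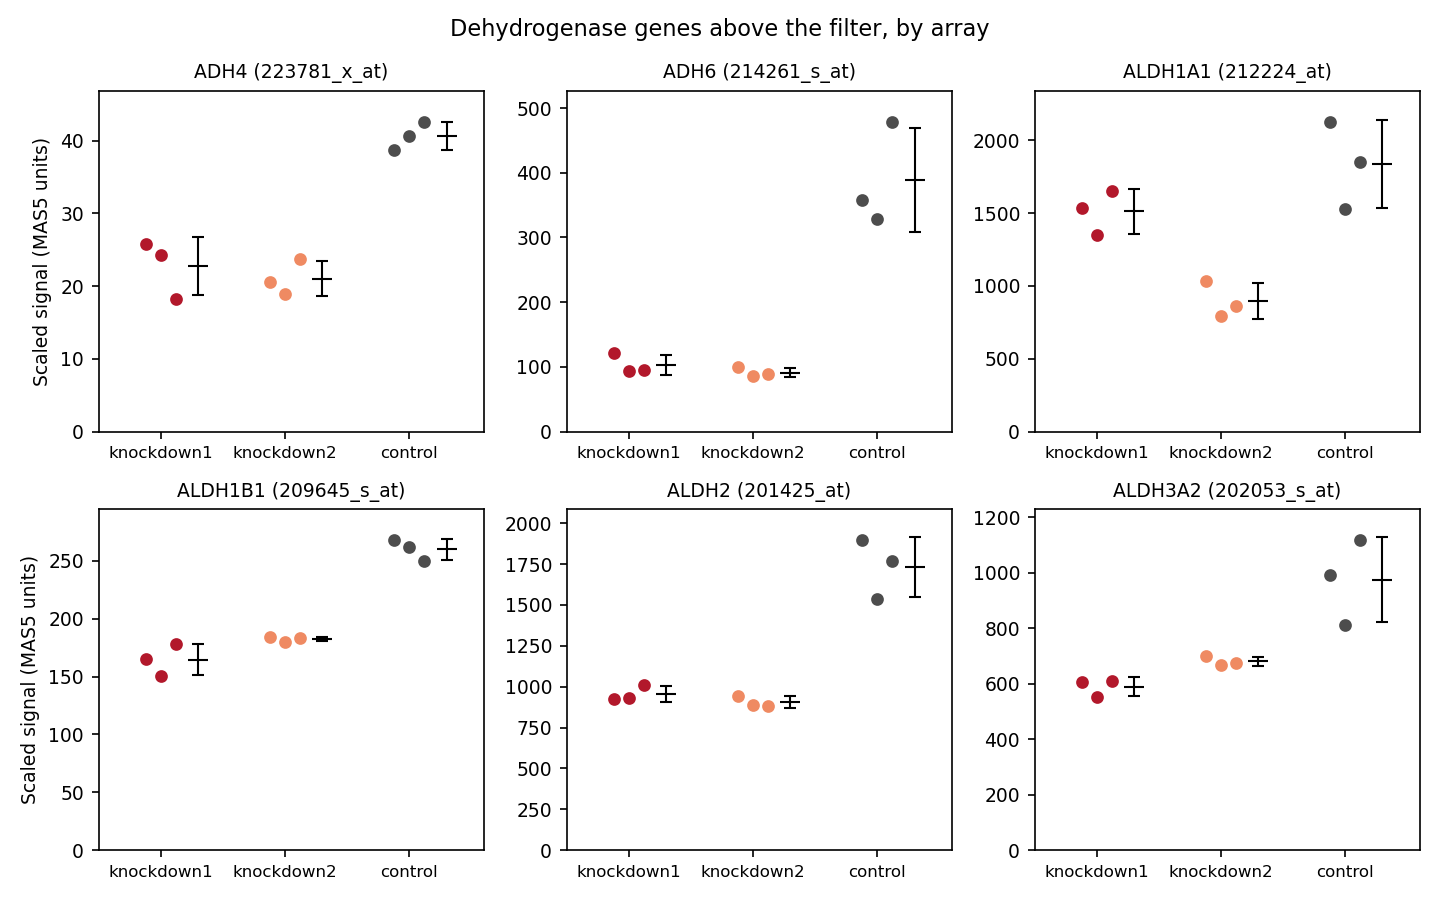
Scaled signal (MAS5 units, linear axis from 0) of the 6 dehydrogenase genes above the filter, for the 3 arrays each of knockdown1, knockdown2 and control. Points are arrays and black bars are the mean ± SD. All 6 knockdown arrays lie below the 3 control arrays for every gene but ALDH1A1, where the knockdown1 arrays (1347 to 1651) overlap the control arrays (1527 to 2128).

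ADH4, ADH6 and the class I genes stand side by side on chromosome 4, in the order ADH5, ADH4, ADH6, ADH1A, ADH1B, ADH1C and ADH7 in the RefSeq annotation of GRCh38.p14. Start-site windows of 300 bases (250 before and 50 after the start, RefSeq, GRCh38.p14) were found for 9 of the 10 genes, all but ALDH2, and ALDH3A2 had a pair of windows. The windows of the 3 genes with the largest fall in at least 1 knockdown among those above the filter with a window are shown, with that of ADH1B for the class I genes. The capitals mark CAAAG on either strand (CTTTG on the printed strand where the match is on the other), the core of the HNF4 recognition site. ADH6 lies at chr4:99219197-99219496, ADH4 at chr4:99144248-99144547, ALDH1A1 at chr9:72953004-72953303 and ADH1B at chr4:99321352-99321651, all on the minus strand and printed 5′ to 3′ along the gene.
ADH6: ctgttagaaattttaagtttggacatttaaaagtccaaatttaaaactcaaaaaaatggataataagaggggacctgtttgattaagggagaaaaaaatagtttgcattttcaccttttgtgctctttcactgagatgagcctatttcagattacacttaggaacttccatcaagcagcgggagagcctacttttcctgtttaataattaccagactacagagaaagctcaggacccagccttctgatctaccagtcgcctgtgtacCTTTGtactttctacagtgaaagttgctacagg
ADH4: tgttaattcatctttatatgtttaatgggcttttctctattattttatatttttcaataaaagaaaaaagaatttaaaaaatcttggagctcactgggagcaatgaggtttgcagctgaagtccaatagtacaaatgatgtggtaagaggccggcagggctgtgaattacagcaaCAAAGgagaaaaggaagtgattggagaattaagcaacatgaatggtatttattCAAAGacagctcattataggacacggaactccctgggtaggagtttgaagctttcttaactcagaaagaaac
ALDH1A1: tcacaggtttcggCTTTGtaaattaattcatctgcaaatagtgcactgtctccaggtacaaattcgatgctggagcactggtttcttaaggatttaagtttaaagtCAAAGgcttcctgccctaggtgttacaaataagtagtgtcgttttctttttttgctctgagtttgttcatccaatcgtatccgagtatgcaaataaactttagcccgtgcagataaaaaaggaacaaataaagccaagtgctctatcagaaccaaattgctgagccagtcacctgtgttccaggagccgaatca
ADH1B: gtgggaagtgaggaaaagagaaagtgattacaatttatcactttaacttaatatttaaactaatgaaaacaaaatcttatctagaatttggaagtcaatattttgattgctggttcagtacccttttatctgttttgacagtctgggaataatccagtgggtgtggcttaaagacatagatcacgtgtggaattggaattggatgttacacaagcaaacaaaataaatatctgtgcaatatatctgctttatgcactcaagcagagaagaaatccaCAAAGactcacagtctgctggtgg
CAAAG occurred in 5 of the 10 windows, against 47.5% of 35116 windows of the same length in the table, a share near that background. ADH4 had 2 matches, beginning 75 and 22 bases before the start, ALDH1A1 had 2, ADH6 and ADH1B had 1 each, and the downstream ALDH3A2 window had 1. The longer form CAAAGTCCA was in 0 of the 10 windows and in 0.384% of all, and GTTAAT, a core of the HNF1 site, was in 1 of 10 (ADH4) and in 6.88% of all, neither overlapping a CAAAG match. The class I windows were 82.3% to 82.9% identical to each other in global alignment, whereas ADH4 and ADH6 were 50.3% identical. The ADH windows had 35.0% to 38.0% G and C and the ALDH1B1 window had 71.3%, against a median of 58.7% over all windows.

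ADH6, which encodes a class V alcohol dehydrogenase whose natural substrate is not settled, had the largest fall among the 6 genes by the representative probe sets. Probe set 214261_s_at read 121, 93.3 and 95.5 in knockdown1, 99.5, 85.6 and 88.5 in knockdown2, and 359, 329 and 479 in control. All 6 knockdown arrays were below every control array, and the knockdown groups overlapped each other. The level was 3.70-fold lower in knockdown1 (log2 fold change -1.89, SE 0.17, adjusted p = 5.40e-10) and 4.17-fold lower in knockdown2 (-2.06, SE 0.17, adjusted p = 2.10e-10). The other ADH6 probe set, 207544_s_at, read 96.5, 90.1 and 119.6 in knockdown1, 107, 118 and 90.7 in knockdown2, and 241, 215 and 217 in control. It fell too, by 1.13 and 1.08 on the log2 scale in knockdown1 and knockdown2 (SE 0.16 each, adjusted p = 1.35e-05 and 3.31e-05 over all probe sets). The 2 probe sets thus read the same direction and a different size, -1.97 and -1.11 over both knockdowns.

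ADH4, the class II enzyme, which oxidises ethanol at high concentrations and also retinol, fell as well, and here the size rested on the probe set. The representative probe set, 223781_x_at, read 25.9, 24.3 and 18.3 in knockdown1, 20.6, 18.9 and 23.7 in knockdown2, and 38.7, 40.7 and 42.6 in control. The groups did not overlap with control, although the knockdown signals lay at 18.3 to 25.9, not far above the common median of 14.1. The log2 fold change was -0.81 in knockdown1 (SE 0.27, adjusted p = 0.0231) and -0.91 in knockdown2 (SE 0.27, adjusted p = 0.0131). The knockdown1 call was lost without knockdown1 replicate 3 (adjusted p = 0.0826), control replicate 1 (0.0540) or control replicate 3 (0.0575), and the knockdown2 call without knockdown2 replicate 2 (0.0532). Probe set 231678_s_at read 17.3, 16.6 and 19.2 in knockdown1, 6.95, 8.19 and 5.05 in knockdown2, and 91.7, 52.1 and 61.6 in control. By this probe set ADH4 fell by 1.83 in knockdown1 (SE 0.32, adjusted p = 1.49e-04 over all probe sets) and by 3.08 in knockdown2 (SE 0.32, adjusted p = 4.61e-07 over all probe sets). The choice of 223781_x_at rests on the mean of log2 values, and by the mean of linear signals 231678_s_at would represent the gene. The suffix x of the representative probe set marks probes that can also match other transcripts. Another 2 ADH4 probe sets stayed below the median on all 9 arrays, at 0.573 to 9.94.

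The class I genes ADH1A, ADH1B and ADH1C could not be compared. All 6 of their probe sets were below the array median on all 9 arrays, with signals of 0.313 to 13.6. ADH1A read 4.04, 5.12 and 5.33 in knockdown1, 6.43, 9.64 and 6.73 in knockdown2, and 5.31, 13.5 and 0.917 in control. The control arrays alone spanned the whole range, and both knockdown groups overlapped them. With no filter on dim probe sets, the log2 fold changes over both knockdowns were 0.27 for ADH1A (SE 0.50, adjusted p = 0.797), -0.36 for ADH1B (SE 0.59, adjusted p = 0.772) and -0.61 for ADH1C (SE 0.45, adjusted p = 0.432). Their 95% intervals were -0.79 to 1.34 for ADH1A, -1.62 to 0.91 for ADH1B and -1.58 to 0.35 for ADH1C. A fall of ADH4 size (-0.86 by its representative probe set) was thus not resolved for ADH1B and ADH1C. The ADH1A interval left that value out by little, on signals below the array median. Class I transcripts are close relatives, and a probe set of this group may also pick up its neighbours. ADH5, the class III gene, which clears formaldehyde, is named for its place in that row. It fell by 0.46 in knockdown1 (SE 0.14, adjusted p = 0.0133) and by 0.59 in knockdown2 (SE 0.14, adjusted p = 0.0023).

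**Figure D2:**
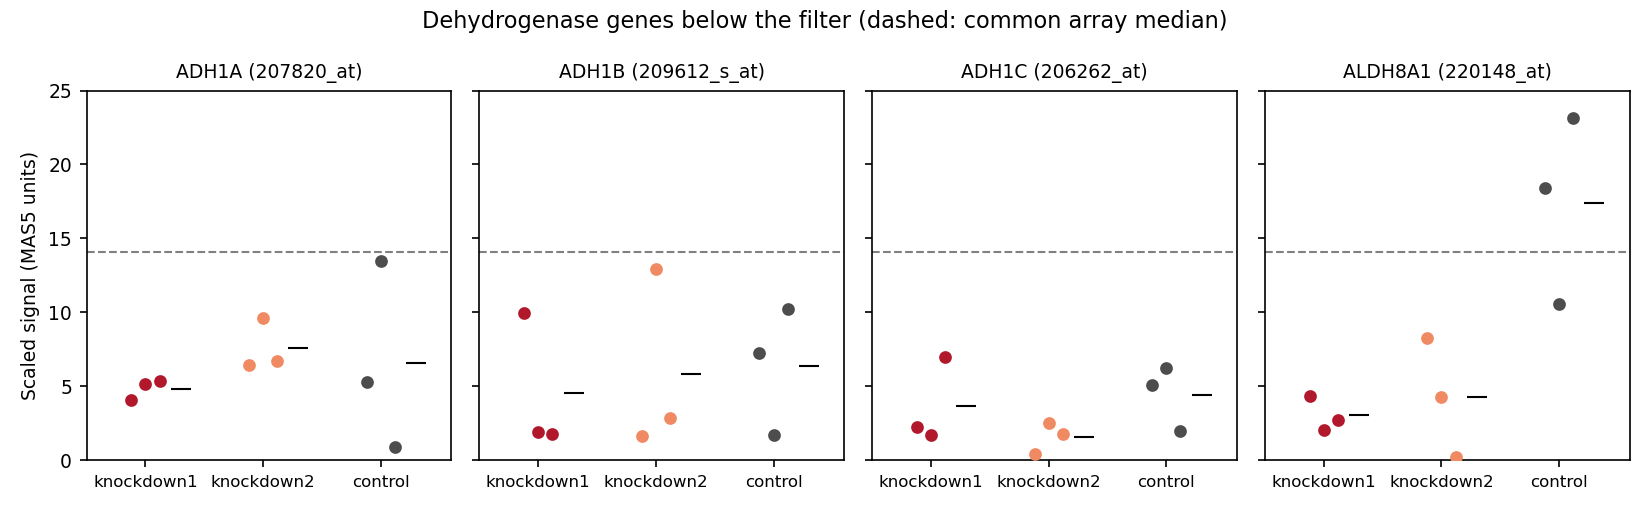
Scaled signal (MAS5 units, linear axis) of the 4 dehydrogenase genes below the filter, representative probe set each, for the 3 arrays each of knockdown1, knockdown2 and control. Points are arrays, short bars are group means and the dashed line is the common array median of 14.1. The ADH1A, ADH1B and ADH1C points all lie below the line, with the arrays of each knockdown overlapping those of control, and ALDH8A1 rises above it on 2 control arrays (18.4 and 23.2).

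ALDH2, the mitochondrial enzyme that removes most acetaldehyde made from ethanol, fell in both knockdowns. It read 928, 929 and 1011 in knockdown1, 946, 888 and 882 in knockdown2, and 1897, 1535 and 1772 in control. The 6 knockdown arrays were all below the control arrays and lay close together. The level was 1.81-fold lower in knockdown1 (log2 fold change -0.85, SE 0.13, adjusted p = 7.71e-06) and 1.91-fold lower in knockdown2 (-0.93, SE 0.13, adjusted p = 3.26e-06). The difference between knockdown1 and knockdown2 was 0.08, with a 95% interval of -0.19 to 0.35 (adjusted p = 0.727).

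ALDH1B1, a mitochondrial relative of ALDH2 that also takes acetaldehyde and retinal, fell in both knockdowns by its representative probe set. Probe set 209645_s_at read 165, 151 and 178 in knockdown1, 184, 180.3 and 184 in knockdown2, and 268, 262 and 249.8 in control. All knockdown arrays were below the control arrays, and the knockdown1 arrays were below those of knockdown2. The log2 fold change was -0.66 in knockdown1 (SE 0.14, adjusted p = 7.05e-04) and -0.51 in knockdown2 (SE 0.14, adjusted p = 0.0092). Probe set 209646_x_at read 91.8, 104 and 132 in knockdown1, 138, 152 and 141 in knockdown2, and 159, 161 and 201 in control. It fell by 0.67 in knockdown1 (SE 0.16, adjusted p = 0.0034 over all probe sets), while its value in knockdown2, -0.26 (SE 0.16), did not pass (adjusted p = 0.266 over all probe sets).

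ALDH1A1, the cytosolic enzyme that converts retinal to retinoic acid and also takes acetaldehyde, was the only gene of the 6 to differ between the knockdowns by its representative probe set. It read 1538, 1347 and 1651 in knockdown1, 1033, 797 and 859.6 in knockdown2, and 2128, 1527 and 1848 in control. The knockdown2 arrays lay below all others, whereas knockdown1 overlapped control. In knockdown2 the level was 2.04-fold lower (log2 fold change -1.03, SE 0.15, adjusted p = 3.37e-06). In knockdown1 the difference was -0.27 (SE 0.15, 95% interval -0.57 to 0.03), which did not pass (adjusted p = 0.161). Without control replicate 2 the knockdown1 value was -0.40 and passed (adjusted p = 0.0312). Knockdown1 was higher than knockdown2 by 0.76 (SE 0.15, adjusted p = 2.07e-04), while 26.6% of all genes differed between the knockdowns in either direction and the arrays of knockdown1 and knockdown2 did not overlap in 43.7%. ALDH1A1 had 1 probe set, so no other reading of it exists on the array.

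ALDH3A2, the membrane-bound fatty aldehyde dehydrogenase whose loss causes Sjögren-Larsson syndrome, was lower in both knockdowns by each of its 3 probe sets. The representative one, 202053_s_at, read 608, 550.2 and 611 in knockdown1, 699, 667 and 675 in knockdown2, and 991, 813 and 1118 in control. Its log2 fold change was -0.71 in knockdown1 (SE 0.14, adjusted p = 2.13e-04) and -0.50 in knockdown2 (SE 0.14, adjusted p = 0.0074). The groups did not overlap, with knockdown1 lowest and control highest. Probe set 202054_s_at read 279, 187 and 242 in knockdown1, 419.6, 389 and 404 in knockdown2, and 665, 494 and 719 in control. It fell by 1.40 in knockdown1 (SE 0.16, adjusted p = 1.25e-06 over all probe sets) and by 0.61 in knockdown2 (SE 0.16, adjusted p = 0.0084 over all probe sets). Probe set 210544_s_at read 134, 121 and 155 in knockdown1, 196, 183 and 216 in knockdown2, and 307, 254 and 315 in control, and fell by 1.09 in knockdown1 and by 0.55 in knockdown2.

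The knockdown1 arrays were below the knockdown2 arrays by all 3 ALDH3A2 probe sets, yet the test of that difference depended on which was read. It was -0.21 by the representative one (SE 0.14, adjusted p = 0.314), -0.79 by 202054_s_at (SE 0.16, adjusted p = 0.0011 over all probe sets) and -0.54 by 210544_s_at (SE 0.15, adjusted p = 0.0117 over all probe sets), where 23.8% of all probe sets differed. ADH4 went the other way by 231678_s_at, at 1.25 (SE 0.32, adjusted p = 0.0061 over all probe sets), and its representative probe set gave 0.10 (SE 0.27, adjusted p = 0.837). By the representative probe sets the difference was 0.17 for ADH6 (95% interval -0.17 to 0.51) and -0.15 for ALDH1B1 (95% interval -0.45 to 0.14). These intervals allow differences between the knockdowns of up to 0.51 and 0.45 in size. The other ALDH1B1 probe set, 209646_x_at, gave a larger difference of -0.41 (95% interval -0.75 to -0.07). It did not pass (adjusted p = 0.0774 over all probe sets).

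ALDH8A1, which oxidises an intermediate of tryptophan breakdown in the kynurenine pathway, was above the array median on 2 of 9 arrays and so failed the filter. It read 4.32, 2.07 and 2.72 in knockdown1, 8.29, 4.25 and 0.210 in knockdown2, and 18.4, 10.6 and 23.2 in control. All 6 knockdown arrays were below the control arrays. With no filter its log2 fold change was -2.05 in knockdown1 and -2.01 in knockdown2 (SE 0.60 each), and over both knockdowns it fell by 2.03 (SE 0.52, adjusted p = 0.0103). Under the same setting 10.7% of 19775 genes were lower over both knockdowns. Knockdown signals this dim are affected by the pseudocount, which leaves the amount of this fall uncertain.

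**Figure D3:**
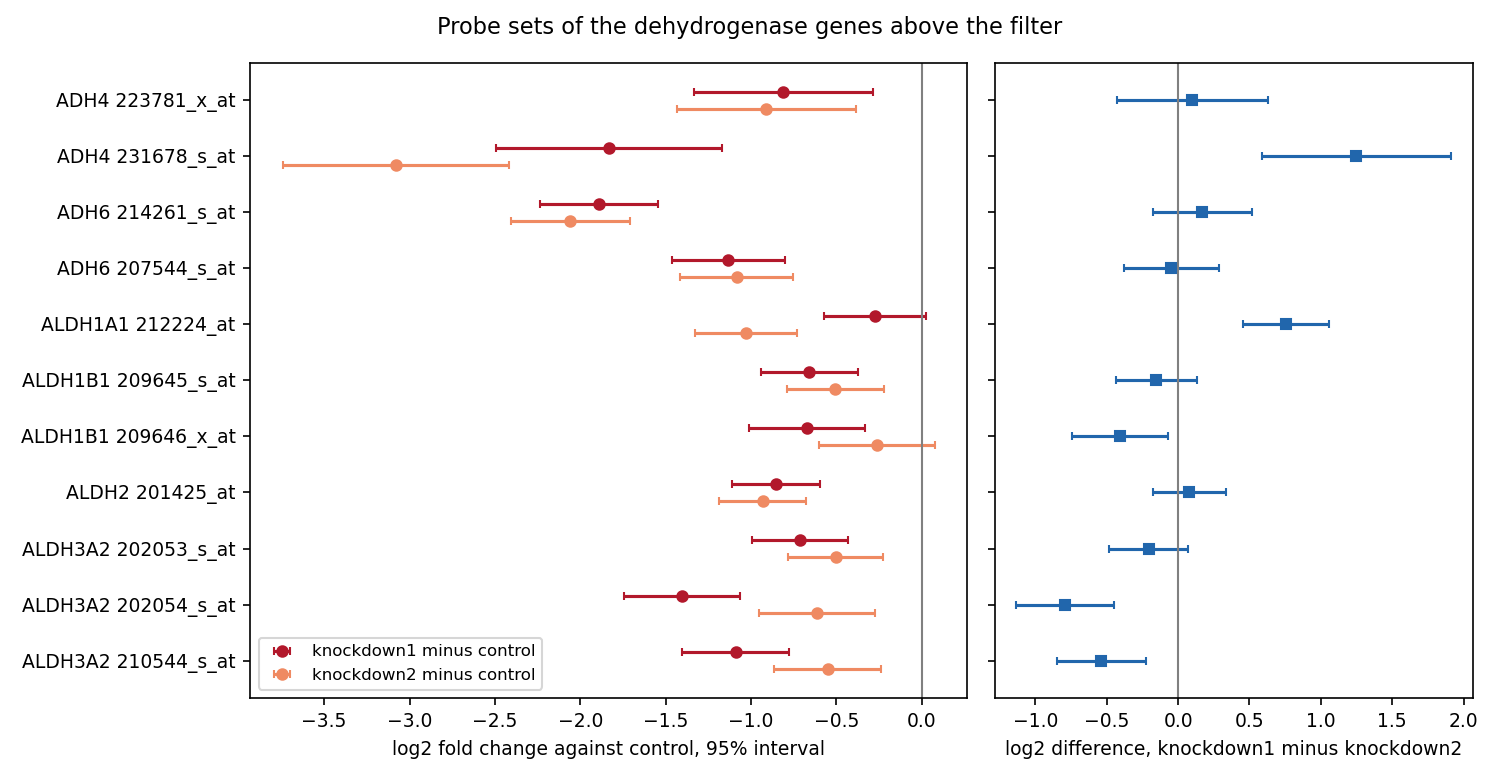
Changes of the 11 dehydrogenase probe sets above the filter. The left panel gives log2 fold changes of knockdown1 and knockdown2 against control and the right panel gives the log2 difference knockdown1 minus knockdown2, each with its 95% interval (limma, 3 arrays per group). Probe sets of ADH4 and of ADH6 differ in size, from -0.81 to -1.83 for ADH4 in knockdown1. In the right panel the intervals of ALDH1A1 and ADH4 231678_s_at lie above 0. Those of ALDH3A2 202054_s_at and 210544_s_at lie below it, as does that of ALDH1B1 209646_x_at, which did not pass after adjustment (adjusted p = 0.0774).

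Over all probe sets, 11 of the 20 passed the filter, and 11 of these 11 were lower over both knockdowns, where 15.3% of 25758 probe sets were. In knockdown1 alone 10 were lower and 0 higher (16.9% of all probe sets were lower), and in knockdown2 alone 10 were lower and 0 higher (11.5% of all were lower). The exceptions were ALDH1A1 in knockdown1 and 209646_x_at of ALDH1B1 in knockdown2. At the level of genes, the 6 knockdown arrays were all below the 3 control arrays in 5 of the 6, as they were in 11.2% of all tested genes.

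The other 17 genes of the ADH and ALDH families were read in the same way. All 17 were annotated, 12 passed the filter, and over both knockdowns 9 of the 12 fell and 0 rose, where 17.9% of all tested genes were lower and 14.7% higher. The median log2 fold change was -0.53, and without control replicate 1 the count was 7 lower and 2 higher. ALDH5A1, which degrades the GABA product succinic semialdehyde, fell by 1.68 (SE 0.14, adjusted p = 2.16e-10). Its signal averaged 259.8 ± 39.0 in knockdown1, 144 ± 9.72 in knockdown2 and 626 ± 117 in control (SD, n = 3 each). ALDH6A1, which acts in valine breakdown, fell by 1.33 (SE 0.18, adjusted p = 1.65e-06), ALDH16A1 by 0.94 (SE 0.17, adjusted p = 7.00e-05) and ALDH18A1, which acts in proline synthesis, by 0.64 (SE 0.13, adjusted p = 2.74e-04). In knockdown1 alone 8 of the 12 fell and 1 rose, where 19.0% of all genes were lower and 14.3% higher. In knockdown2 alone 7 fell and 0 rose, where 13.9% were lower and 13.7% higher. Without knockdown1 replicate 2 the knockdown1 count was 5 lower and 0 higher. The riser was ALDH3B1 (0.60, SE 0.23, adjusted p = 0.0448), named after its value was seen, whose value in knockdown2 was 0.29 (SE 0.23, adjusted p = 0.383). Its call was lost on leaving out any of the 3 knockdown1 arrays, knockdown2 replicate 2, or control replicate 2 or 3. The mean of probe sets and the fit with no variance trend lost it too. Among these genes ALDH7A1 and ALDH9A1 were lower in knockdown1 than in knockdown2 (-0.67 and -0.45, SE 0.15 and 0.14, adjusted p = 0.0011 and 0.0195), and both are named after their values were seen.

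**Figure D4:**
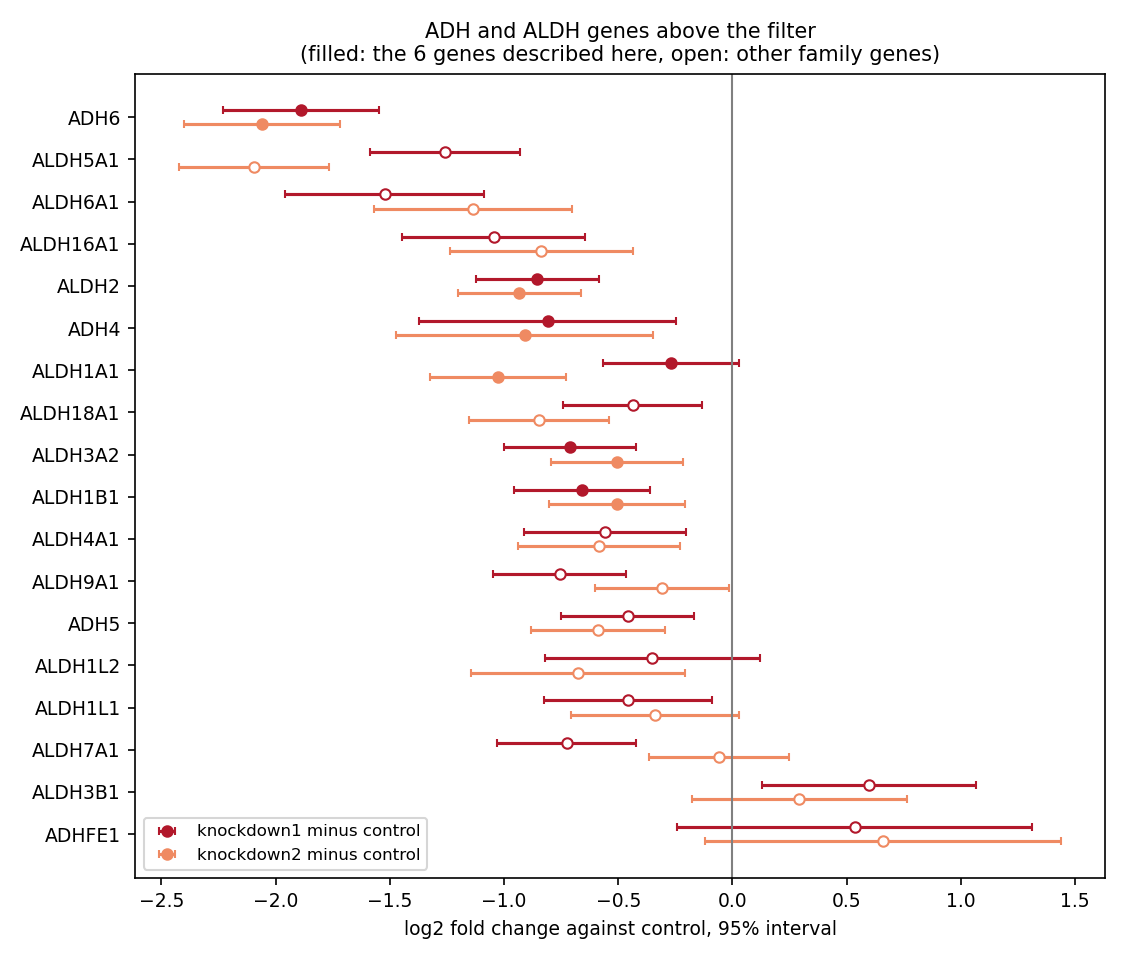
Log2 fold changes with 95% intervals (limma, 3 arrays per group) of the 18 ADH and ALDH genes above the filter, for knockdown1 and knockdown2 against control, sorted by the value over both knockdowns. Filled points are the 6 genes described above and open points are the other 12. ADH6 has the lowest value over both knockdowns (-1.97), ALDH1A1, ALDH5A1 and ALDH7A1 show the knockdowns apart, and ALDH3B1 and ADHFE1 lie above 0.

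Genes that act beside the dehydrogenases in ethanol use and in retinoid handling were read from lists chosen by their textbook roles. The lists were drawn up with earlier results of these data known. In ethanol and acetate use, 6 of 8 genes passed the filter, and 3 fell and 0 rose over both knockdowns, where 17.9% of all genes were lower. ACSS2, the cytosolic enzyme that activates acetate, fell by 1.34 (SE 0.14, adjusted p = 1.54e-08), to 78.1 ± 2.73 in knockdown1 and 148 ± 22.5 in knockdown2, against 274 ± 36.1 in control (SD, n = 3 each). Catalase, CAT, which can oxidise ethanol in peroxisomes, fell by 0.88 (SE 0.12, adjusted p = 7.29e-07), and the mitochondrial acetate enzyme gene ACSS1 by 0.65 (SE 0.19, adjusted p = 0.0075). In retinoid handling, 24 of 28 genes were annotated and 16 passed the filter. Of these 16, 4 fell and 2 rose over both knockdowns, near the 17.9% lower and 14.7% higher among all genes. The median log2 fold change was -0.12, and it was -0.24 over the 15 genes left without DHRS9, which exceeded the common median on knockdown arrays only. RBP4, the plasma retinol carrier, fell by 0.83 (SE 0.11, adjusted p = 8.89e-07), the retinoid X receptor gene RXRA by 0.81 (SE 0.15, adjusted p = 1.49e-04), and TTR, which carries RBP4 in plasma, by 0.67 (SE 0.17, adjusted p = 0.0026). RDH11 and RDH10, which interconvert retinol and retinal, rose by 0.49 (SE 0.14, adjusted p = 0.0086) and 0.32 (SE 0.12, adjusted p = 0.0441). Neither passed without control replicate 1 or with the mean of probe sets. In several further alternatives, such as no variance trend, only 1 gene of the list rose.

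In the kynurenine and NAD synthesis list, which holds the pathway of ALDH8A1, 13 of 17 genes passed the filter, 4 fell and 3 rose over both knockdowns, where 17.9% of all genes were lower and 14.7% higher, with a median of -0.05. In knockdown1 alone 0 rose, and over both knockdowns 0 rose without control replicate 2. HAAO, which opens the ring of a tryptophan product on the way to NAD, fell by 1.66 (SE 0.23, adjusted p = 1.42e-06), and QPRT, a further step toward NAD, by 0.81 (SE 0.12, adjusted p = 8.07e-06). AFMID, which makes kynurenine, also fell, with a log2 fold change of -1.39 (SE 0.37, adjusted p = 0.0042). NAPRT, which makes NAD precursor from nicotinic acid, rose by 1.21 (SE 0.39, adjusted p = 0.0172), and NADSYN1, the last step of NAD synthesis, by 0.41 (SE 0.15, adjusted p = 0.0288). The NAPRT signal averaged below the common median in control, so the size of its rise is uncertain.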

How the data were processed

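Total RNA of HepG2 cells was hybridised as labelled cRNA, as the labels' protocols describe. The deposited intensities are linear signals for 54675 probe sets, made by the authors with MAS5, per the submitters' processing notes (version not given in the sources used here), and the trimmed mean of each array was 100.0. Array medians differed by 1.28 times (12.3 to 15.7), so each array was multiplied by 0.898 to 1.15 to reach the common median of 14.1. No detection calls and no counts were available to this work, so 3 arrays per group set the precision. The platform annotation named the probe sets, 41091 with 1 symbol, 1801 with several, 11721 with none and 62 controls.

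Values were tested as log2(signal + 1.41) by limma 3.58.1 (R 4.3.3), whose empirical Bayes step used a variance trend, in 1 fit of all 9 arrays as 3 groups, two-sided. P-values were adjusted by Benjamini-Hochberg over 13056 genes, or over 25758 probe sets where so stated, with a threshold of 0.05. The fit was tried on simulated data with independent normal noise and equal shifts in both knockdowns. That simulation held no array-wide or scaling differences and no differences between the knockdowns, so it does not bear on those. Over genes, Pearson's r was 0.973 to 0.978 within groups and 0.931 to 0.953 between them, and arrays of a group shared at most 1.37% of their values. The calls split by scaling: 42.9% of the genes called in knockdown1 against control were higher with median scaling, 54.2% with the values as deposited and 53.7% after quantile normalization. Between knockdown1 and knockdown2 these shares were 39.4%, 57.1% and 56.1%.

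The rule for named genes took HNF4G, all 10 dehydrogenase genes with each probe set, up to 4 called genes per list with the largest change, up to 2 called against the majority, and the 3 nearest profiles of each gene. The 10 genes, the lists and the motifs were chosen with earlier results of these data known. Alternatives were other scalings, pseudocounts and filters, the mean of probe sets, no variance trend, the replicate number as a block, and leaving out each array. RefSeq windows came from GRCh38.p14. The replicate numbers come from the titles only. Deviations of same-numbered arrays from their group means correlated at -0.02 to 0.13 over genes, with 1 of 9 above 0.1, so the numbers were not taken to pair the arrays.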

Additional observations from a re-analysis of the deposited data

Results flagged for a closer look

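Each result here was singled out because its effect against control differed between knockdown1 and knockdown2 by a direct test, given as knockdown1 minus knockdown2 on the log2 scale. Such differences were frequent, at 26.6% of all tested genes. ALDH1A1 differed by 0.76 (SE 0.15, adjusted p = 2.07e-04), with 3 of 3 knockdown1 arrays above all knockdown2 arrays. Among further probe sets of the dehydrogenase genes, adjusted over all probe sets, 231678_s_at of ADH4 differed by 1.25, and 202054_s_at and 210544_s_at of ALDH3A2 by -0.79 and -0.54, while the representative probe sets of both genes did not pass. The ADH4 probe set read 5.05 to 8.19 in knockdown2, below the common median of 14.1.

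Of the other family genes, ALDH5A1 differed by 0.83 (adjusted p = 2.06e-04) and ALDH18A1 by 0.41 (adjusted p = 0.0427). In ethanol and acetate use, ACSS2 was lower in knockdown1 than in knockdown2 (-0.90, adjusted p = 8.62e-05) and CAT was higher (0.46, adjusted p = 0.0105). AKR1B10 differed by 0.39 (adjusted p = 0.0293), AFMID by 1.196 (adjusted p = 0.0375), PTGR1 by -0.79 (adjusted p = 1.01e-04) and SGPL1 by 0.88 (adjusted p = 2.86e-05). These list genes come from the naming rule, which takes only genes called over both knockdowns. CBR1 and RXRB, named after their values were seen, moved in opposite directions and were not called there. CBR1 was 0.96 in knockdown1 and -0.83 in knockdown2, a difference of 1.79 (adjusted p = 1.71e-09). RXRB was 0.51 and -0.52, a difference of 1.03 (adjusted p = 5.43e-06). With 3 arrays per group, no array was tested as an outlier.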

How the results depend on the processing

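Over both knockdowns the 6 dehydrogenase genes above the filter were lower and passed in all 18 alternatives (for ADH4, the 17 other than the stricter filter), with ADH6 at -2.09 to -1.54, ALDH2 at -0.98 to -0.83, ALDH3A2 at -0.81 to -0.50, ALDH1A1 at -0.77 to -0.54, ALDH1B1 at -0.61 to -0.52 and ADH4 at -1.66 to -0.61. The stricter filter left ADH4 with 231678_s_at (-2.46), which passed that filter through its control arrays only, so its passing there is no support. Of 432 recomputed values of single genes, 0 changed direction with a call, 5 lost and 5 gained the threshold, and the other 422 kept both. ADH4 in knockdown1 no longer passed with no filter (adjusted p = 0.0613) or without knockdown1 replicate 3, control replicate 1 or control replicate 3 (adjusted p = 0.0826, 0.0540 and 0.0575). ADH4 in knockdown2 no longer passed without knockdown2 replicate 2 (adjusted p = 0.0532), and ALDH1A1 in knockdown1 passed without control replicate 2 (-0.40).

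Between the knockdowns, 1 of the 6 genes passed. This became 2 after quantile normalization (ALDH2 added, 0.22), 2 with the stricter filter (ADH4 added, 1.25) and 3 with the mean of probe sets (ADH4 and ALDH3A2 added, 0.67 and -0.51). The genes called over both knockdowns numbered 3301 to 4424 when an array was left out. Without control replicate 3, 2586 were higher and 1838 lower, against 1916 and 2340 with all arrays. The cause was not tested. With the replicate block, 4905 genes passed over both knockdowns and 6, 5, 6 and 1 of the dehydrogenase genes in the 4 comparisons, which changed no call among them. Correlations within replicate numbers gave 2 of 9 arrays their own number as best match in both other groups. For the other 17 family genes, 7 to 10 fell and 0 to 2 rose over both knockdowns across the alternatives. Signals below the common median limit ADH1A, ADH1B, ADH1C and ALDH8A1.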

Other observations

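Further enzymes that handle aldehydes without belonging to the ADH or ALDH families were read from a pair of further lists. Among aldo-keto and carbonyl reductases, which reduce aldehydes and ketones, 12 of 14 genes were annotated and 11 passed the filter. Of these 11, 3 fell and 0 rose over both knockdowns, where 17.9% of all genes were lower, with a median log2 fold change of -0.10. Across the alternatives 2 to 5 fell and 0 to 2 rose. The count was 5 lower without control replicate 2, with the values as deposited (1 higher) and after quantile normalization (2 higher), among others. AKR1B10, which reduces retinal and other aldehydes, fell to 1373 ± 103 in knockdown1 and 1049 ± 27.7 in knockdown2, against 4275 ± 588 in control (SD, n = 3 each, log2 fold change -1.82, SE 0.11, adjusted p = 1.40e-12). AKR1D1, a reductase of bile acid synthesis, fell by 1.996 (SE 0.28, adjusted p = 1.92e-06) and DCXR by 0.44 (SE 0.13, adjusted p = 0.0089). In the list of fatty aldehyde and lipid peroxide handling, the surroundings of ALDH3A2, 11 of 14 genes passed the filter. CYP4F2 exceeded the common median on control arrays only and so passed through them, and of the other 10 genes 5 fell and 1 rose, with a median of -0.39, where 17.9% of all genes were lower and 14.7% higher. CYP4F3, a fatty acid hydroxylase gene whose probe set may pick up relatives, fell, with a log2 fold change of -4.78 (SE 0.20, adjusted p = 7.12e-16) and with knockdown signals near the common median. CYP4F2 read 2.07 to 12.5 on the knockdown arrays, against 37.8 to 51.2 in control. The aldehyde oxidase gene AOX1 fell by 0.97 (SE 0.14, adjusted p = 2.78e-06) and PTGR1, a reductase of lipid peroxidation products, by 0.92 (SE 0.12, adjusted p = 1.17e-06). SGPL1, which releases a fatty aldehyde from sphingosine phosphate, rose over both knockdowns by 0.35 (SE 0.12, adjusted p = 0.0305), a mean of unlike values, 0.79 in knockdown1 and -0.09 in knockdown2. That call over both knockdowns was lost without knockdown1 replicate 1 or 3, knockdown2 replicate 2 or 3, or control replicate 1 or 2. The mean of probe sets and the fit with no variance trend lost it too.

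Outside the lists, the genes whose profiles over the 9 arrays lay nearest to each dehydrogenase were found by the root mean square difference of log2 values, each gene centred on its own mean. For ADH6 they were RGN, FAM162B and IGSF1 (0.13, 0.16 and 0.18), for ADH4 C3orf33, NR2F1 and NUP50-DT (0.14, 0.14 and 0.15), and for ALDH2 BORCS7, SLC1A4 and ZNRF1 (0.07, 0.08 and 0.08). For ALDH3A2 they were FMO5, ARFGEF2 and PPIL3 (0.04, 0.05 and 0.06), for ALDH1B1 LMO4, HDAC6 and IRF1 (0.08 each), and for ALDH1A1 SRF, PIKFYVE and ROGDI (0.08, 0.09 and 0.10). Among the dehydrogenases themselves, ALDH1B1 and ALDH3A2 were nearest to each other (0.13), and ADH6 was 0.54 from its nearest, ALDH2. These values describe 9 arrays in 3 groups and carry no test.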
